A study of Rattus norvegicus with 3 samples.

Results

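In each of 3 single-cell RNA libraries of rat mandibular condyle, 1 cluster of cells was chosen by its measured Rag1 level: the cluster with the highest Rag1 mean count among the clusters other than the one highest in Vpreb1. It is called the Rag1 cluster here. The choice gave 3 clusters of 52 in all: 1 of 15 in the sham library, 1 of 18 in the UAC library and 1 of 19 in the UAC + miR-330 library. Rag1 and Vpreb1 chose the cluster, so their levels in it are descriptions. The authors' clusters were made from the same expression data, so differences between clusters are descriptions too.

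The tissue was cartilage and subchondral bone of the temporomandibular joint of wild-type SD rats kept under SPF conditions, with age and sex not given in the sources used here. All 3 groups received an AAV injection into the joint. The sham group had Vector AAV and no bite change. The other groups had unilateral anterior crossbite (UAC), a dental appliance model that alters occlusion and loads the joint, with Vector AAV in one and miR-330 AAV in the other, and tissue was taken after 8 weeks. The 24 rats gave 8 rats and 16 condyles a group, and these condyles were mixed into 1 library, so each group is 1 pooled sample with no replicate. The libraries held 77668015 UMIs (sham), 92629658 UMIs (UAC) and 97255383 UMIs (UAC + miR-330). The labels give the cell types as chondrocytes and osteoclast.

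B cells develop in bone marrow, which fills the spaces of subchondral bone. A pro-B cell joins the segments of its heavy chain gene with the recombinase made of Rag1 and Rag2, and a large pre-B cell pairs the new heavy chain with the surrogate light chain of Vpreb1 and Igll1, divides, and becomes a small resting pre-B cell that expresses the recombinase again to join its light chain gene. Ebf1 and Pax5 are the transcription factors that set and keep the B lineage, and Cd79a with Cd79b carries the signal of the receptor.

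The chosen clusters were cluster 2 in sham, cluster 1 in UAC and cluster 1 in UAC + miR-330. Levels are in CPM: a gene's UMIs, scaled so that each cluster or library totals 1000000. Rag1 stood at 340.4 CPM (95% Poisson interval 324 to 357) in sham, 294 (281 to 308) in UAC and 395 (382 to 408) in UAC + miR-330. The cluster that the rule left out for its Vpreb1 level was as rich in Rag1 or richer, at 336, 337 and 523 CPM in the same order. The cluster just outside the choice was cluster 4 in sham with 290.2 (272 to 309.6), cluster 6 in UAC with 276 (252 to 301) and cluster 3 in UAC + miR-330 with 320.3 (298 to 344). In UAC the interval of that next cluster overlapped that of the chosen one. The rule thus took 1 of several clusters with much Rag1: besides the Vpreb1 cluster, 5 clusters in sham, 4 in UAC and 3 in UAC + miR-330 had at least 50% of the chosen cluster's Rag1 level, the chosen one included. Cluster 13 of UAC + miR-330 lay just under that limit, at 194 CPM.

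**Figure D1:**
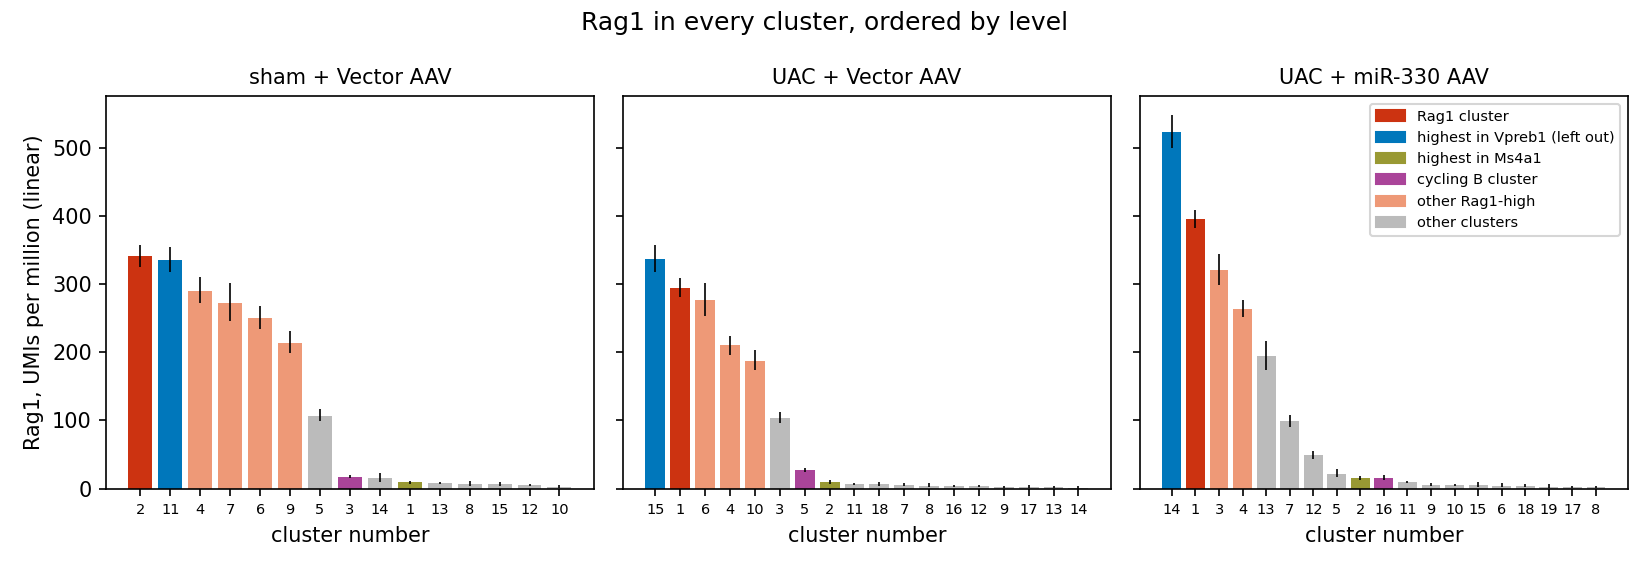
Rag1 level (CPM, linear axis) in every cluster of each library, with exact Poisson 95% intervals that cover counting error only. The chosen cluster (red) stood at 340.4, 294 and 395 CPM, beside the left-out Vpreb1 cluster (blue) at 336, 337 and 523.

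The Rag1 cluster held genes of the B lineage at high levels. Ebf1 was at 17867 CPM in sham, 18933 in UAC and 21639 in UAC + miR-330, against 7313, 6739 and 8904 over the whole libraries, and no other cluster of the same library had more. Pax5 was at 668, 694 and 834 CPM. Vpreb3, which associates with immunoglobulin chains in pre-B cells, was at 478, 418 and 439, and Cd79b at 888, 749 and 692. Both were shared with the other Rag1-high clusters: each of these had more Cd79b, at 915 to 1068 CPM in sham, 783 to 862 in UAC and 714 to 726 in UAC + miR-330, and Vpreb3 was higher in clusters 4 and 6 of sham (513 and 514) and cluster 4 of UAC (432). Blnk, the adaptor that links the receptor's kinase Syk to calcium signalling, was at 2075, 2202 and 2477, again the highest of all clusters in each library. The levels of these genes lay close together in the 3 libraries, and Cd79b went down from sham to UAC to UAC + miR-330 while Ebf1 went up.

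Several marks of the stages before and after were low. Vpreb1 was at 9.26, 19.7 and 13.7 CPM in sham, UAC and UAC + miR-330, against 339.9, 513 and 438 in the left-out cluster. Igll1 was at 25.7, 26.6 and 16.0, against 1750, 1232 and 1065 there. Dntt, the polymerase that adds bases at heavy chain joints, was at 2.06, 4.35 and 1.81, against 1522, 1329 and 1322 there. Vpreb1 differed by the rule itself, since it named the left-out cluster, while Igll1 and Dntt had no part in the choice. Ms4a1, which encodes CD20 of mature B cells, was at 8.23, 5.32 and 6.80 CPM, against 383, 403 and 667 in the cluster highest in it. Mki67, a protein of dividing cells, was at 8.03, 7.73 and 6.59, against 942, 1000 and 2216 in the cycling B cluster. Other markers of these stages were not low. Bst1, in the list of pro-B and large pre-B markers, was at 64.4, 61.2 and 87.9 CPM, the highest of all clusters in each library, against 38.8, 42.4 and 62.4 in the left-out cluster. Cd40, in the list of mature B markers, was at 195.7, 200 and 188, against 85.6, 89.1 and 82.6 over the libraries. The mature B markers summed to 590 CPM in sham, 584 in UAC and 584 in UAC + miR-330, near the 559, 620 and 698 of the whole libraries, and to 3301, 3298 and 4215 in the cluster highest in them.

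Of the 10 genes listed as small pre-B markers, 9 were detected in sham and in UAC and 10 in UAC + miR-330. The exceptions to the label that were nearly absent were Cd79a and Il2ra. The identifier that RefSeq pairs with Cd79a, named Cd79al in the tables, held 4 UMIs in the whole sham library, 6 in UAC and 10 in UAC + miR-330, and 0, 0 and 1 of them lay in the Rag1 cluster, while Cd79b held 45069, 40510 and 39356 UMIs in the libraries. Cd79al therefore marked no cluster, the B cell clusters included, and nothing about Cd79a rests on it. Il2ra, the CD25 antigen that marks small pre-B cells in mouse marrow, was at 1.23, 2.26 and 0.531 CPM. The cluster is called by its rule for these reasons, and the working name small pre-B rests on the remaining markers. Of those, Rag1 chose the cluster and is no separate evidence. Cd79b did not single the cluster out, as given above, nor did Rag2. Rag2 was higher in cluster 5 of sham (51.1 against 38.3 CPM), cluster 3 of UAC (37.3 against 36.1) and cluster 12 of UAC + miR-330 (69.9 against 48.9).

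**Figure D2:**
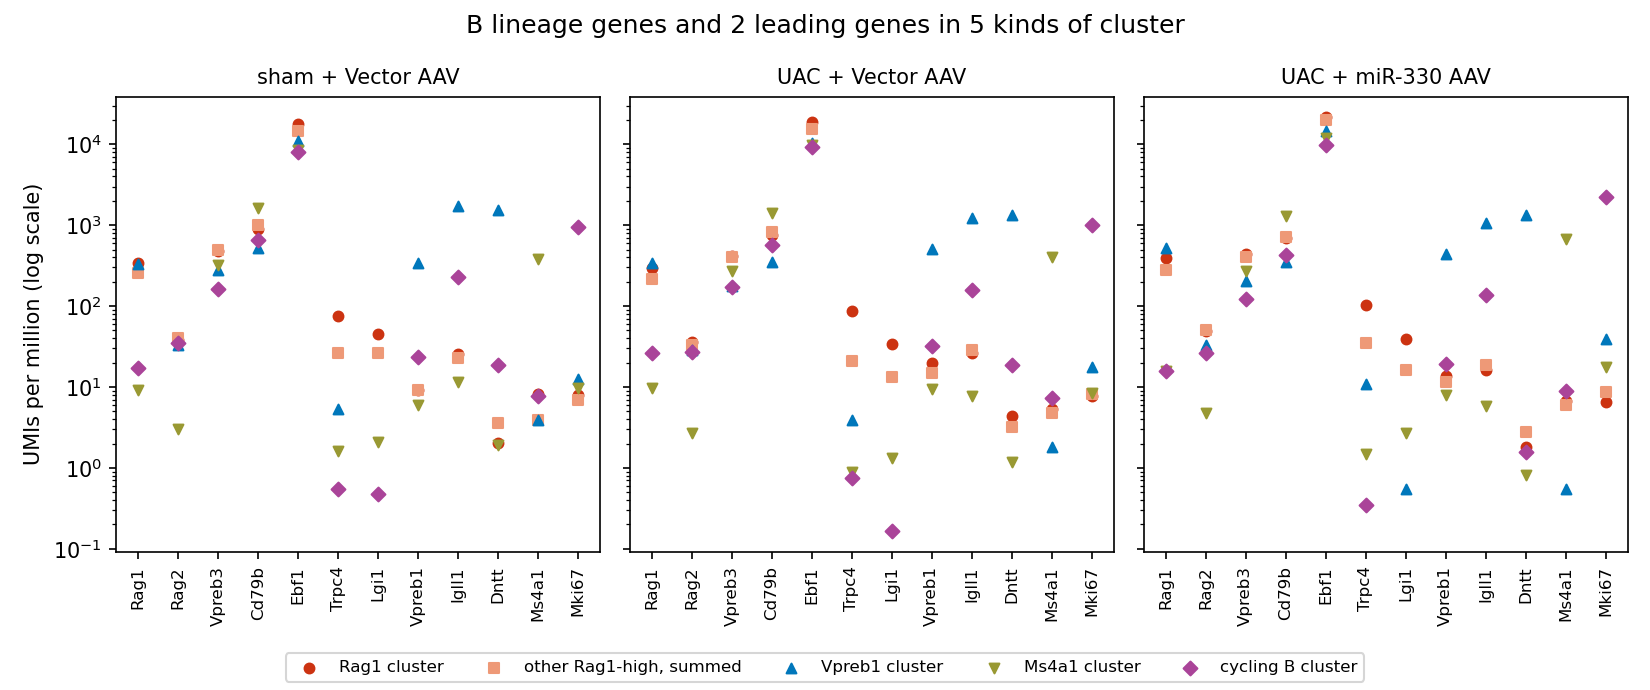
Levels (CPM, log axis) of 12 genes in the Rag1 cluster, the other Rag1-high clusters summed, the Vpreb1 cluster, the Ms4a1 cluster and the cycling B cluster of each library; points at 0 are not drawn. Trpc4 stood at 74.5, 86.9 and 103 in the Rag1 cluster and at 5.28, 3.94 and 10.8 in the Vpreb1 cluster.

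The genes that led the cluster over the rest of its library were not in the marker lists: among the 10 leading genes of each library 0 belonged to any of the 14 lists. The lists are short, and leading genes named only by clone were not identified, so B cell genes may be among them. Trpc4, a calcium-permeable cation channel, was at 74.5 CPM in sham, 86.9 in UAC and 103 in UAC + miR-330, against 9.19, 8.49 and 14.5 over the libraries. Lgi1, a secreted protein best known from synapses, was at 45.7, 33.8 and 38.9, against 7.22, 3.90 and 5.93. Trhde, a peptidase that degrades thyrotropin-releasing hormone, was at 299.8, 273 and 529.8, against 52.0, 39.6 and 102. Trpc4 and Trhde were highest in this cluster among all clusters of each library, and Lgi1 was so in UAC and UAC + miR-330 and ranked 3 in sham. Of the 50 leading genes, 30 were shared by all 3 libraries, and of the 10 leading genes 4 were. These lists were chosen on the values they describe.

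The cluster of one library matched that of the next. Across 7395 genes, the log2 level over the rest of the library in sham cluster 2 had a correlation of 0.974 with that in UAC cluster 1, and 0.943 with the next most similar cluster of UAC. Between UAC cluster 1 and UAC + miR-330 cluster 1 it was 0.975 across 7806 genes, against 0.947 for the next. The margin was smaller in the opposite directions: from UAC + miR-330 to UAC the next cluster had 0.961, from UAC to sham 0.9575, and from UAC + miR-330 to sham 0.968 against 0.974 for the chosen one. In all 6 directed pairs of libraries the chosen cluster was the most similar one. These correlations are across genes, which are not independent replicates, and describe the match only.

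Few genes differed between the chosen cluster and the sum of the other Rag1-high clusters. Of 7773 genes with at least 100 UMIs in the compared clusters of each library, 3 were at least 2-fold higher in the chosen cluster in all 3 libraries and 1 was at least 2-fold lower. The 3 were Trpc4, Pknox2 and Rapgef5. Trpc4 stood at 26.2, 21.1 and 34.8 CPM in the other clusters, log2 ratios of 1.51, 2.04 and 1.56. Pknox2, a homeodomain factor, had log2 ratios of 1.44, 1.18 and 1.37, and Rapgef5, an exchange factor for Rap proteins, 1.49, 1.04 and 1.12. The 1 lower gene was Ramp1, a partner of the calcitonin receptor-like receptor, with log2 ratios of −1.98, −1.93 and −1.84. Against the next cluster by Rag1 alone, a comparison added after the values were seen, 0 of 6380 genes were at least 2-fold higher in all 3 libraries and 0 lower. Trpc4 stood at 56.7, 51.2 and 84.3 CPM there, log2 ratios of 0.39, 0.76 and 0.28. The ratios were 0.60, 0.15 and 0.11 for Pknox2, 0.80, 0.47 and 0.18 for Rapgef5 and −1.11, −0.74 and −1.26 for Ramp1, which had too few UMIs to be among the 6380. The clusters were made from the same data, so these ratios are descriptions.

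Against the left-out Vpreb1 cluster, 533 of 7002 genes were at least 2-fold higher in the Rag1 cluster in all 3 libraries and 728 at least 2-fold lower. Among the 10 with the largest smallest ratio were Lgi1, at 0, 0 and 0.555 CPM in the left-out cluster, and March1, a ubiquitin ligase that acts on MHC class II molecules (log2 5.26, 6.34 and 7.0). Lower in the Rag1 cluster were Dntt (−9.46, −8.23 and −9.47), the endothelial and progenitor factor Erg (−7.95, −7.53 and −8.30) and Vpreb2 (−6.89, −6.94 and −6.91), which with Vpreb1 belongs to the surrogate light chain. Rag1 itself was about as high in the left-out cluster or higher, as given above.

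Against the Ms4a1 cluster, 193 of 7375 genes were at least 2-fold higher in all 3 libraries and 291 lower. Rag1 was at 9.13, 9.62 and 15.8 CPM there, and Rag2 at 3.04, 2.66 and 4.78, against 38.3, 36.1 and 48.9 in the Rag1 cluster. Arpp21, an RNA-binding phosphoprotein known from lymphoid progenitors, was higher by log2 4.53, 4.48 and 4.27. The MHC class II genes RT1-Bb (−6.30, −6.32 and −6.72), RT1-Ba (−5.98, −6.37 and −5.89) and RT1-Da (−5.99, −5.83 and −6.09) were lower, as were the cyclin gene Ccnd2 (−4.95, −4.99 and −4.92) and the survival gene Bcl2 (−4.70, −5.01 and −5.33).

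The share of the library's UMIs in the Rag1 cluster was 6.26% in sham (exact binomial 95% interval 6.25 to 6.26), 6.70% in UAC (6.69 to 6.70) and 9.68% in UAC + miR-330 (9.67 to 9.69). The share was highest in UAC + miR-330. Summed over all Rag1-high clusters the order was another: 20.9% in sham, 16.9% in UAC and 19.2% in UAC + miR-330. Cluster 13 of UAC + miR-330, just under the limit, held another 1.74% of its library and is not in that sum. The gap between sham and UAC + miR-330 in the summed share thus depends on the limit. A share of UMIs is not a share of cells, and more cells and more RNA per cell cannot be told apart. The division of these cells into clusters was made in each library alone, and its part in the shares was not tested.

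The first comparison asks how the cluster of rats with the crossbite differed from that of sham rats. Among the 8551 genes that passed the filter of 50 UMIs, 43 were at least 2-fold higher in UAC than in sham (0.503%) and 35 at least 2-fold lower (0.409%), with a median log2 ratio of −0.03 over all of them. Ratios were above 0 for 3886 genes and below 0 for 4665, and the counts above and below 0 in the lists of this comparison stand beside these. On the deposited means without scaling, which add 0.20 to every log2 ratio, the counts were 89 higher and 10 lower. There is 1 library a group, so no test was possible, the spread between animals is unknown, and the intervals cover counting error only. The genes named for their size included heat shock genes, genes of neutrophils, and genes of cartilage and bone matrix.

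Among the 10 largest rises were 2 heat shock genes. Hsph1, a co-chaperone of the Hsp70 family, was at 75.9 CPM in sham, 217 in UAC and 231 in UAC + miR-330 (log2 1.51, UAC against sham). Hsp90aa1, the inducible form of the Hsp90 chaperone, was at 104.5, 275 and 289 (log2 1.39). Both were low in sham and alike in the UAC libraries. In the list of immediate early and heat shock genes 14 of the 16 listed genes had at least 50 UMIs, 9 had ratios above 0 and 5 below, and 2 were at least 2-fold higher and 0 lower, with a median log2 ratio of 0.23. Jun, a subunit of the AP-1 factor, was at 349 CPM in sham, 571 in UAC and 576 in UAC + miR-330 (log2 0.71). Dnajb1, another co-chaperone, was at 49.4, 43.8 and 39.5 (log2 −0.17). In the other Rag1-high clusters the log2 ratios were 1.73 for Hsph1 and 1.35 for Hsp90aa1, and in the next cluster by Rag1 alone 2.54 and 1.59.

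Of the neutrophil markers 7 were counted in UAC against sham: all 7 had ratios above 0, against 3886 of all 8551 genes, but only Retnlg was at least 2-fold higher, and the median log2 ratio was 0.95. Ngp, a neutrophil granule protein, was at 95.5 CPM in sham, 185 in UAC and 63.5 in UAC + miR-330. Retnlg was at 11.1, 33.4 and 13.9 (log2 1.58). Outside that list, among the 10 largest rises, Ccl6, a chemokine of myeloid cells, was at 4.73, 15.5 and 7.01 (log2 1.69), G0s2, an inhibitor of the lipase Pnpla2, at 7.0, 28.0 and 13.6 (log2 1.99), and Serpinb1a, an inhibitor of neutrophil proteases, at 7.0, 17.1 and 8.07 (log2 1.27). These genes were higher in UAC than in either other library. The size of the ratios depended on the cluster taken: with the Rag1-high clusters summed they were 0.78 for Retnlg, 1.19 for Ccl6, 1.92 for G0s2 and 1.34 for Serpinb1a, and in the next cluster by Rag1 2.89, 3.89, 3.62 and 2.93. Of the 14 neutrophil markers 13 were detected in the Rag1 cluster of sham and 14 in each of the others, and they summed to 925 CPM in sham, 1794 in UAC and 908 in UAC + miR-330, with S100a9 the most abundant at 353, 685 and 384. Over the whole libraries they summed to 41391, 64031 and 45099, and Csf3r was at 0 in the sham cluster. Their part in the values of this cluster was not tested.

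Of the chondrocyte markers 5 were counted and of the osteogenic and fibroblast markers 4: all had ratios below 0 in UAC against sham, where 4665 of all 8551 genes did, with medians of −0.76 and −0.64, and 0 of them were at least 2-fold lower. Col1a1, the main collagen of bone and a member of the second list, was at 169, 84.8 and 57.7 CPM in sham, UAC and UAC + miR-330 (log2 −0.99). Outside these lists, among the 10 largest falls, Snorc, a cartilage proteoglycan, was at 20.4 CPM in sham, 7.74 in UAC and 6.05 in UAC + miR-330 (log2 −1.39). Bgn, the proteoglycan biglycan, was at 37.7, 16.6 and 9.98 (log2 −1.18), and Col11a2 at 17.3, 6.93 and 9.56 (log2 −1.31). These 4 genes stood highest in sham. In the next cluster by Rag1 the log2 ratios were −1.27 for Snorc, −0.84 for Bgn, −0.43 for Col11a2 and −0.80 for Col1a1, so the 2-fold calls of Bgn and Col11a2 depended on the cluster taken. The 9 chondrocyte markers summed to 138 CPM of the cluster in sham, 80.2 in UAC and 65.1 in UAC + miR-330, with Col2a1 the most abundant at 52.1, 28.5 and 29.0, and to 5790 (sham), 2579 (UAC) and 3152 (UAC + miR-330) over the libraries. Of them 9, 8 and 9 were detected in the cluster, with Matn1 at 0 in UAC. The 11 osteogenic and fibroblast markers summed to 245, 139 and 86.7 in the cluster and to 9283, 4434 and 4136 over the libraries, with Col1a1 the most abundant; of them 10, 9 and 10 were detected, with Sp7 at 0 in all 3 and Pdgfra at 0 in UAC. Their part in the result was not tested.

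**Figure D3:**
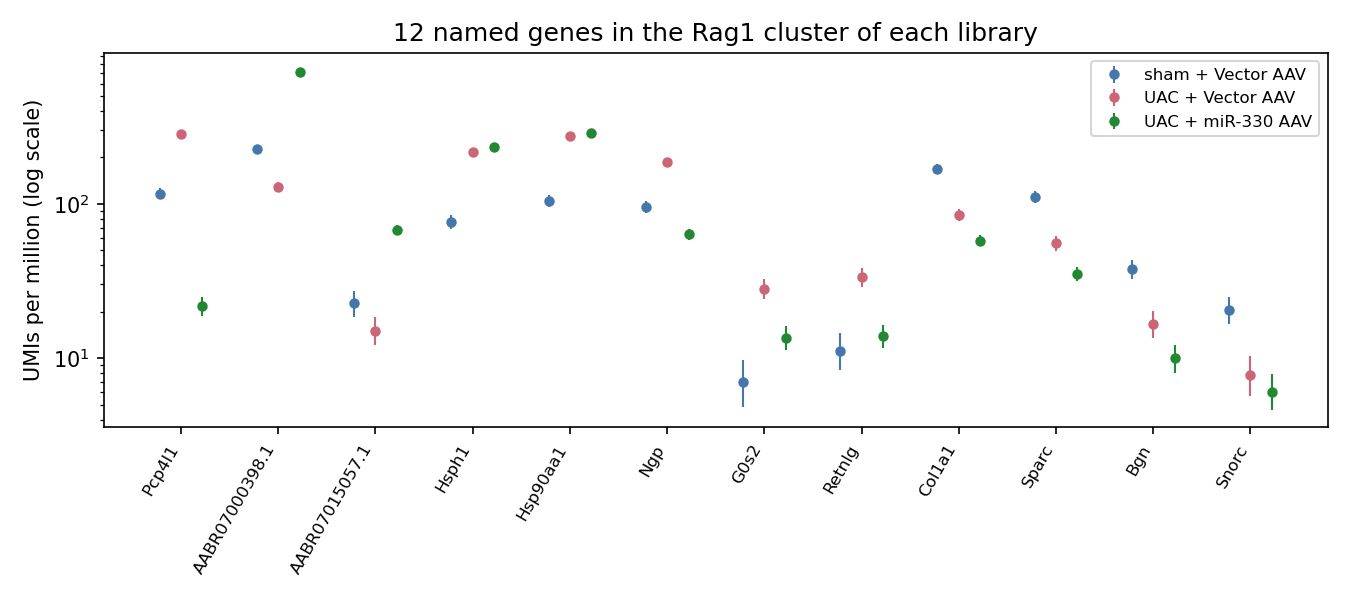
Levels of 12 named genes in the Rag1 cluster of each library (CPM, log axis) with exact Poisson 95% intervals that cover counting error only. Pcp4l1 stood at 116, 283 and 21.7 in sham, UAC and UAC + miR-330, and AABR07000398.1 at 227, 129 and 717.

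Among the B lineage lists, that of surrogate light chain and pro-B genes had the median furthest from 0 in this comparison. Of its 13 listed genes 8 were counted, 6 with ratios above 0 and 2 below, with a median log2 ratio of 0.29, and 0.26 with Vpreb1 left out, an alternative added later. The 1 gene at least 2-fold higher was Vpreb1, at 9.26 and 19.7 CPM (log2 1.08), a gene of the rule; the ratio was 0.86 with the Rag1-high clusters summed, 0.48 in the next cluster by Rag1 and 0.99 with 5 UMIs added. With at least 10 UMIs a gene the median was 0.49. Of the 29 listed B lineage transcription factors all 29 had enough UMIs, 0 were 2-fold higher and 0 lower, with a median log2 ratio of 0.07. Lef1, a Wnt pathway factor of early B cells, was at 61.1 CPM in sham, 114 in UAC and 93.2 in UAC + miR-330 (log2 0.90, UAC against sham), and Id3, an inhibitor of E proteins such as Tcf3, at 41.4, 21.6 and 25.9 (log2 −0.94). Of the 18 genes of V(D)J recombination and end joining 15 were counted, with 0 in either direction and a median of −0.08. Rag1, which had chosen the cluster, had a log2 ratio of −0.21. Of 26 listed genes of pre-B and B cell receptor signalling 24 were counted, 0 in either direction, median −0.08.

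The second comparison asks how the cluster differed between the miR-330 and the empty vector, both with the crossbite. Among 9132 genes, 98 were at least 2-fold higher in UAC + miR-330 than in UAC (1.07%) and 85 at least 2-fold lower (0.931%), with a median log2 ratio of 0.06. On the unscaled means, which add 0.24 to every log2 ratio, the counts were 278 and 38. In the next cluster by Rag1, an alternative added after the values were seen, 12 of those 98 genes and 24 of those 85 passed 2-fold in the same direction, and in the first comparison 21 of 43 and 1 of 35. The UAC library serves both comparisons, so a value that is high or low in it moves both. The vector carried miR-330, and rat miR-330 has the mature forms below, read from RefSeq (build GRCr8), at chr1:87961266-87961288 for the 3p form and chr1:87961227-87961248 for the 5p form, both on the + strand. The labels used here do not say which arm was meant, and mature miRNAs are not counted in these libraries. The seeds (bases 2 to 8, in capitals) are shown because they are what a miRNA pairs with on its targets, and they are different in the arms.
rno-miR-330-3p: gCAAAGCAcagggccugcagaga
rno-miR-330-5p: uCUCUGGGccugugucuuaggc

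Pcp4l1, a small protein with a calmodulin-binding IQ motif related to Pcp4, showed the largest difference. It was at 116 CPM in sham, 283 in UAC and 21.7 in UAC + miR-330, log2 ratios of 1.28 and −3.70. It stood highest in UAC and lowest in UAC + miR-330, with Poisson intervals that did not overlap between any of the 3. The difference was not particular to the cluster: over the whole libraries it was at 40.9, 71.0 and 7.88, and in the other Rag1-high clusters the log2 ratios were 0.87 and −3.21. Whether Pcp4l1 holds a miR-330 site was not tested, since no UTR sequence was used.

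The largest rises in this comparison were of 2 genes named by clone. AABR07000398.1 was at 227 CPM in sham, 129 in UAC and 717 in UAC + miR-330 (log2 2.47, UAC + miR-330 against UAC), and AABR07015057.1 at 22.6, 15.0 and 67.5 (log2 2.17). Both were also higher over the whole library, at 169, 108 and 551 and at 11.5, 7.88 and 35.8. Rap1b, a small GTPase of integrin signalling, was at 11.1, 12.1 and 30.2 (log2 1.31), and Pcdh17, a protocadherin among the leading genes of the cluster, at 18.1, 14.2 and 34.5 (log2 1.28). Rap1b was higher across the library too, at 8.78, 12.9 and 32.4. Stxbp6, a regulator of vesicle fusion, was at 5.35, 2.42 and 9.13 (log2 1.88), and Pik3r3, a regulatory subunit of phosphoinositide 3-kinase, at 5.97, 4.19 and 10.2 (log2 1.26). With the Rag1-high clusters summed the ratios were 1.33 for Stxbp6 and 0.77 for Pik3r3.

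After Pcp4l1 the largest fall was again of a gene named by clone, AABR07038983.1, at 4.32, 15.3 and 3.40 CPM in sham, UAC and UAC + miR-330 (log2 −2.16), and AABR07072539.1, another, was at 9.47, 11.9 and 4.46 (log2 −1.41). Over the whole libraries AABR07038983.1 was at 68.7, 130 and 64.5, far above its level in the cluster and likewise highest in UAC. AABR07072539.1 was at 9.23, 12.9 and 5.11 over the libraries. Also lower in UAC + miR-330 were Zswim6, at 39.3, 61.7 and 23.6 CPM in sham, UAC and UAC + miR-330 (log2 −1.39), and Wnt4, a secreted Wnt ligand, at 11.3, 16.9 and 6.69 (log2 −1.33, and −0.91 in the next cluster by Rag1). Ngp was at 185 and 63.5 in UAC and UAC + miR-330 (log2 −1.54, and −3.78 in that next cluster). Of all 9132 genes in this comparison 3941 had ratios below 0 and 0.931% were at least 2-fold lower, and the marker counts here stand beside these. For the 8 neutrophil markers counted in this comparison the median log2 ratio was −1.01, 0 of them were higher and 5 were at least 2-fold lower. For the osteogenic and fibroblast markers 5 were counted, 1 higher and 4 lower, 2 of them at least 2-fold, with a median of −0.97, and of 5 chondrocyte markers 1 was higher and 4 lower, 1 of them at least 2-fold, with a median of −0.21. The sum of neutrophil markers in the cluster was 1794 in UAC and 908 in UAC + miR-330, highest in UAC among the 3 libraries.

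The V(D)J list had a median log2 ratio of 0.31 against 0.06 over all genes. With Rag1 left out, an alternative added later, it was 0.31, but leaving out 1 gene of 16 can hardly move a median. The list's median was not computed in the other Rag1-high clusters. Of the list's 18 genes 16 were counted: 10 had ratios above 0 and 6 below, where 5191 of all 9132 genes had ratios above 0. Of those counted, 0 were at least 2-fold higher and 1 at least 2-fold lower. Rag2, the partner of Rag1, was at 36.1 CPM in UAC and 48.9 in UAC + miR-330 (log2 0.44), and Lig4, the ligase of end joining, at 662 and 883 (log2 0.41). Rag1, which had chosen the cluster, was at 294 and 395 (log2 0.42). The 1 gene 2-fold lower was Hmgb1, a DNA-bending protein that helps the recombinase, at 58.4 in sham, 63.3 in UAC and 29.1 in UAC + miR-330 (log2 −1.12). Its ratio was −0.71 in the next cluster by Rag1 and −0.89 on unscaled means, so this 2-fold call depended on the setting.

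Receptor signalling genes had a median log2 ratio of 0.15, with 0 of 25 at least 2-fold higher or lower. Lyn, a kinase at the receptor, was at 2330 CPM in sham, 2309 in UAC and 3162 in UAC + miR-330 (log2 0.45), and Prkcb, a protein kinase C, at 696, 747 and 951 (log2 0.35). Cd81, a tetraspanin, was at 530.5, 493 and 352 (log2 −0.49). The transcription factors stayed near 0 with a median of 0.05 over 29: Ebf1 had a log2 ratio of 0.19, Bach2, a repressor of plasma cell genes, 0.30, and Tcf3, an E protein, −0.35. In the quiescence list the median over 14 genes was 0.20; Foxo3, a factor that restrains the cell cycle, was at 156, 144 and 252 (log2 0.80), and Tsc22d3 at 141, 153 and 96.7 (log2 −0.66).

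In the list of B cell maturation 15 of 23 listed genes were counted, 8 with ratios above 0 and 7 below. Of all 9132 genes 5191 had ratios above 0. The median log2 ratio of the list was 0.22, and 0.09 for members of no other list. Its genes at least 2-fold higher were 2, where 1.07% of all genes were, and 0 were 2-fold lower. Both were at low levels. Cr2, the complement receptor of mature B cells, was at 3.70, 2.42 and 7.12 CPM (log2 1.52). Tnfrsf13b, a receptor for BAFF and APRIL, was at 4.73, 2.74 and 7.12 (log2 1.35). With the Rag1-high clusters summed these ratios were 1.00 and 0.96, and in the next cluster by Rag1 0.17 and 0.76, so the 2-fold calls depended on the cluster taken. Bank1, a B cell scaffold, was at 124, 95.2 and 146 (log2 0.61). In all, 5 genes of MHC class II were counted, 2 with ratios above 0 and 3 below, with a median log2 ratio of −0.44. In the first comparison 1 of 5 was above 0 and 4 were below, with a median of −0.13. Cd74, the invariant chain, was at 474, 358 and 240.4 CPM in sham, UAC and UAC + miR-330 (log2 −0.41 and −0.57) and RT1-Db1 at 273, 271 and 200.1 (log2 −0.01 and −0.44). Cd74 was lower in each comparison, while RT1-Db1 hardly differed in the first and was lower in the second.

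For the remaining lists, median log2 ratios for UAC against sham and for UAC + miR-330 against UAC were 0.06 and 0.20 for quiescence genes, −0.06 and 0.04 for S phase genes, −0.06 and −0.26 for G2 and mitosis genes, 0.01 and −0.01 for interleukin-7 receptor and survival genes, 0.05 and 0.05 for homing and adhesion genes, 0.14 and −0.03 for NF-kB genes, and −0.20 and 0.24 for interferon-stimulated genes. With at least 10 UMIs a gene, the median in the second comparison was −0.47 for G2 and mitosis genes, 0.55 for interferon-stimulated genes and −0.08 for S phase genes. The surrogate light chain and pro-B list had −0.11 in the second comparison, and −0.28 with that filter. Its median lay on the other side of 0, at 0.05, with Rag1 and Vpreb1 left out, an alternative added later. It was also 0.05 for members of no other list and 0.12 on unscaled means. Cell cycle genes were scarce in this cluster: in the first comparison 10 of 19 listed S phase genes and 7 of 17 listed G2 and mitosis genes had enough UMIs to be counted. Genes past 2-fold in these lists were few. Itgal, an integrin of the homing list, was at 2.68, 6.12 and 5.10 CPM (log2 1.16 in the first comparison), Cd44, of the same list, at 2.06, 5.80 and 2.34 (log2 −1.30 in the second), and Birc5, a survival protein of mitosis, at 7.0, 7.09 and 3.29 (log2 −1.10 in the second). In the interferon list Ifit2 was at 2.06, 1.61 and 6.90 CPM (log2 2.04 in the second comparison). Xaf1 was at 6.59, 3.22 and 4.99 (log2 −1.02 in the first). In the next cluster by Rag1 the same ratios were −0.16 for Ifit2, 0.20 for Xaf1 and 0.55 for Birc5, on the other side of 0. With the Rag1-high clusters summed Itgal had 0.84 and Birc5 −0.78.

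Of the genes named by the study, the list held Ctgf, Fgfr1, Epor and Il1b; TNF-α, also named there, was not in the list and was not analysed here. Ctgf was at 8.85, 3.06 and 1.81 CPM in the cluster (log2 −1.51, UAC against sham) and at 232, 108 and 87.5 over the libraries. Il1b was at 3.70, 9.67 and 3.72 (log2 1.36 and −1.37), and at 89.2, 147 and 111 over the libraries. With the Rag1-high clusters summed its ratios were 0.83 and −1.03, and in the next cluster by Rag1 2.71 and −0.52, so both 2-fold calls depended on the cluster taken. The log2 ratio of Ctgf in that next cluster was −0.95. Fgfr1 was at 2.26, 1.13 and 0.212. The cluster held little of these genes, and Epor gave 1 UMI in sham and 0 in the other libraries.

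Genes counted as groups by name differed most in amount for ribosomal protein genes, whose share of the cluster's UMIs was 10.2% in sham, 9.40% in UAC and 7.61% in UAC + miR-330. Over the whole libraries it was 13.3%, 11.9% and 10.1%. Mitochondrial genes took 5.08%, 4.84% and 4.94%, immunoglobulin genes 0.562%, 0.534% and 0.502%, and haemoglobin genes 0.00821%, 0.00464% and 0.00684%. The immunoglobulin group held only 3 names. Ighm made up nearly all of it, at 5616 CPM of the cluster in sham, 5302 in UAC and 5006 in UAC + miR-330. Any immunoglobulin genes listed under other names were not counted in the group.

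Promoter sequence is given for Rag1, which chose the cluster, for Rag2 and Vpreb3, which were above their library level in it, and for Igll1, which was low in it and high in the left-out cluster. Each stretch is the 250 bases before the gene's start, from RefSeq, build GRCr8: chr3:108383185-108383434 on the − strand for Rag1, chr3:108357149-108357398 on the + strand for Rag2, chr20:12718227-12718476 on the − strand for Vpreb3 and chr11:97642937-97643186 on the + strand for Igll1. Capitals mark matches on either strand to CAGNTG, the E-box class bound by Tcf3, and to CCCNNGGG, the core that Ebf1 binds. Of all 33469 promoters of this length 43.3% held the first and 10.8% the second. Rag1 had 2 matches to the first, Rag2 had 1, Vpreb3 had 0 and Igll1 had 4, and the second matched in Igll1 alone of these, at 1 place. The promoters of Dntt, Ebf1, Trpc4 and Blnk were scanned as well and are not shown. Dntt had 0 matches to the first and 1 to the second, Trpc4 had 1 and 0, and Ebf1 and Blnk had 0 of either. A match describes letters and is not a site.
Rag1: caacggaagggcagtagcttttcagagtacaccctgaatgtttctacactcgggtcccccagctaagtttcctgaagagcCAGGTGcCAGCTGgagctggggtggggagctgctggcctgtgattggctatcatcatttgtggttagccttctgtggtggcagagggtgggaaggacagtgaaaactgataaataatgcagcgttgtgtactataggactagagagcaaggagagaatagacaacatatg
Rag2: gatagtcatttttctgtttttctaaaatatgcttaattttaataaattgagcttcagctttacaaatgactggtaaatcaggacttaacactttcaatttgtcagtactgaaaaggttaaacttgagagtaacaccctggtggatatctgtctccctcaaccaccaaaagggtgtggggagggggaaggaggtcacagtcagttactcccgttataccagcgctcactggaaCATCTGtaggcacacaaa
Vpreb3: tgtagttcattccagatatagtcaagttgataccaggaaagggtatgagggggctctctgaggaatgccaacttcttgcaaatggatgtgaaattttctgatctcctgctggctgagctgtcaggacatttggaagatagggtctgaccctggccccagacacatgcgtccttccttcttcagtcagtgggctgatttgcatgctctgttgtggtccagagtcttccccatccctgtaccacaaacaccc
Igll1: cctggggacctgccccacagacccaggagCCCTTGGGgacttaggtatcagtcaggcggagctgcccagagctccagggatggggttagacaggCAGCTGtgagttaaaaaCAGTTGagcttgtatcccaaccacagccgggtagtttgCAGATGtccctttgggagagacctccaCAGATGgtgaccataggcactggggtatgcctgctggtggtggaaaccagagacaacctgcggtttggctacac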

How the data were processed

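Each library was made with the 10x Genomics 3′ v3.1 chemistry. The processing notes name Cell Ranger 7.0, STAR and Seurat 4.0.1; the genome builds they name are GRCh38 and mm10, of human and mouse, and no rat build, so the build behind these rat tables is not known. The authors deposited, for each library, a table of graph-based clusters that holds, for every gene and cluster, the mean count signal, a log2 fold change and an adjusted p-value. The deposited log2 and p-value columns were not used, since they compare cells within 1 library. The members and gene lists were chosen with earlier results of these data known.

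UMIs were recovered as each mean divided by the smallest positive mean of its column, and every value was whole to within 1e-06. Identifiers that share a name were added. Levels are CPM, UMIs per 1000000 UMIs of the cluster, with exact Poisson 95% intervals. The intervals of shares are binomial and exact, and counting error is all that either kind covers. Depth was 77668015, 92629658 and 97255383 UMIs, of which 4859367, 6205734 and 9415116 lay in the Rag1 cluster of sham, UAC and UAC + miR-330. Log2 ratios had 0.5 UMI added, genes needed 50 UMIs or more over the pair of libraries, and a gene past 2-fold was counted. No test was made, since each group is 1 library. Cells are not in the tables, so cell numbers, doublets and free RNA were not analysed here.

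Named genes were those of the gene lists with most UMIs or the largest ratios, the 10 leading genes of the cluster over the rest of the library, the 10 largest differences each way among genes with at least 100 UMIs and intervals that did not overlap (immunoglobulin, ribosomal protein, haemoglobin and mitochondrial genes are given as groups), and the 10 most different genes against other clusters in all 3 libraries. Cell type markers are named from their lists. The compared clusters were the one highest in Vpreb1, the one highest in Ms4a1 among those left, and a cycling B cluster, the one highest in Mki67 among those left with at least the library's B cell receptor level. That last rule was written with Cd79a; the matching identifier held too few UMIs to use, and Cd79b was put in its place after the values were seen. As written, it took cluster 7 of sham, with Mki67 at 13.3 CPM, cluster 11 of UAC and cluster 16 of UAC + miR-330, and with Cd79b clusters 3, 5 and 16. The other Rag1-high clusters were also defined after the values were seen.

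Of 367 list and marker genes, 347 matched by name, 2 by a RefSeq synonym, and 18 were not analysed here. Python 3.11.15 with pandas 2.3.3, NumPy 2.4.6 and SciPy 1.17.1 was used, and the steps were tested on simulated data. Alternatives were other scalings, filters, added counts, limits and choices of cluster.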

Additional observations from a re-analysis of the deposited data

How the results depend on the processing

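For UAC against sham the count of genes past 2-fold, 78 in all, was 99 on unscaled means, 54 with 5 UMIs added, 526 with at least 10 UMIs, 13 with at least 200 UMIs, 3451 with no filter and 487 at 1.5-fold. For UAC + miR-330 against UAC it was 183, and 316, 122, 761, 52, 2838 and 1003 in the same order. Filters and limits admit other numbers of genes by construction. With median centring, totals without immunoglobulin, ribosomal protein, haemoglobin and mitochondrial genes, intervals kept apart or identifiers kept apart, both counts stayed within 1.5 times. With the Rag1-high clusters summed, chosen after seeing the data, the counts were 147 and 267, and with the next cluster by Rag1, likewise, 148 and 174.

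The share in sham, UAC and UAC + miR-330 was 6.52%, 6.95% and 10.01% without those 4 groups of genes, 29.9%, 20.7% and 36.0% of the 4 B clusters, and, as alternatives added later, 17.6%, 21.95% and 36.0% with the cycling cluster chosen by Cd79b, 20.9%, 16.9% and 19.2% for the summed clusters and 4.07%, 1.94% and 2.43% for the next cluster. The order of the 3 libraries depended on this choice, with sham highest for the summed clusters and for the next cluster. For the summed clusters, the gap between sham and UAC + miR-330 depends on the limit. It leaves out cluster 13 of UAC + miR-330, with 1.74% of its library. The cause of the order was not tested.

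Highest Rag2 outside the Vpreb1 cluster chose clusters 5, 3 and 12, and highest Vpreb3 chose 6 in sham, 4 in UAC and the same cluster in UAC + miR-330. Highest Rag1 of all chose the same cluster in sham, 15 in UAC and 14 in UAC + miR-330. Leaving out the cluster highest in Igll1 or Dntt changed none of the 3.

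Of 30 list medians 16 were above 0, and 26 on unscaled means; the other settings gave 12 to 17, one of them, with Rag1 and Vpreb1 left out, added later. The next cluster by Rag1 turned the sign of Sox5 (log2 −1.05 to 1.14) and Xaf1 (−1.02 to 0.20), UAC against sham, and of Birc5 (−1.10 to 0.55) and Ifit2 (2.04 to −0.16), UAC + miR-330 against UAC; the cause was not tested. No other setting turned a named gene past 2-fold. Of the 22 and 27 genes past 2-fold that the naming rule took in the comparisons, 13 and 16 stayed past it in the next cluster, 14 and 22 with the clusters summed, 16 and 25 on unscaled means, 19 and 27 with 5 UMIs added and 21 and 27 with median centring. Among genes the report names, on unscaled means Bgn was at −0.98, Sox5 at −0.85, Birc5 at −0.86, Hmgb1 at −0.89 and Xaf1 at −0.82. With 5 UMIs added Itgal was at 0.90, Vpreb1 at 0.99 and Xaf1 at −0.92. With median centring Xaf1 was at −0.99. With the clusters summed Xaf1 was at −0.86 and Sox5 at −0.26.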
